A study of Ovis aries with 6 samples.

Results

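CD74, DQA, CIITA and LY86 are genes of antigen presenting cells, and their levels were followed in the somatic cells of sheep milk under a control diet and under a diet with extruded linseed. The transcripts were taken from the deposited table by gene symbol, and each of the 4 genes matched 1 transcript, so 4 of 49705 transcripts are described. All 4 had a mean of at least 1 RPKM (reads per kilobase of transcript, divided by the size of the library) over the 6 libraries, the minimum for a test across transcripts. CD74, LY86 and CIITA were higher with linseed in each of the 3 sheep, whereas DQA was higher in sheep 1 and 3 and lower in sheep 2. The 4 genes were chosen by symbol from a list of class II genes in which the RPKM values had already been compared between the diets, so they were selected on that difference. Their values between diets are given as a description, and no test is read from them.

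Class II molecules of the major histocompatibility complex are pairs of an alpha and a beta chain that show peptides from ingested proteins to CD4+ T cells. CD74, the invariant chain, binds new class II pairs in the endoplasmic reticulum, blocks their groove and carries them to endosomes, where proteases degrade it and peptides are loaded. CIITA is the co-activator that governs transcription of class II genes and of CD74 through a DNA-bound complex of RFX, CREB and NF-Y proteins, and it responds to interferon gamma. In milk, macrophages, dendritic cells and B cells are the usual carriers of class II, and epithelial cells can acquire it.

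Milk was taken from 3 Comisana ewes. The labels give day 90 of lactation for all 6 samples, although each ewe had the diets at different times. For the control samples they had hay with a commercial concentrate for 3 weeks. For the linseed samples the same ewes had grass, hay and a concentrate with 20% of extruded linseed, by dry matter, for 3 weeks. Linseed therefore cannot be told apart from the grass or from the order of sampling. The cells of 250 ml of milk gave 1 RNA library per ewe and diet, a mixture of epithelial cells and leukocytes, in which fewer cells of a type and less RNA per cell cannot be told apart. Libraries with the same number in their titles were taken as the same sheep, and each change within a sheep rests on that matching. The libraries held 4941935 to 22644050 reads, as solved from the steps of the low RPKM values. Milk protein genes took 1.28% to 47.8% of the reads, with sheep 3 lowest and sheep 1 highest under both diets. The library of control sheep 1 had the lowest value of the 6 libraries for all 4 genes, a position it held in 33.4% of the 15891 tested transcripts. The genes were selected on their difference between diets, and a higher level with linseed makes a control library likelier to be lowest. That share is therefore no like comparison.

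CD74 had the highest mean RPKM of the 4 genes over the 6 libraries, at 255.9 against 165.0 for DQA, on a scale that corrects for transcript length; in control sheep 2 and 3 DQA was above it. Control sheep 1, 2 and 3 had 10.6, 217.8 and 67.6 RPKM, from 385, 3084 and 1152 reads. With linseed the same sheep had 294.3, 469.3 and 475.8 RPKM, from 2339, 4511 and 15235 reads. All linseed libraries lay above all control libraries, and the linseed values lay close together, the highest being 1.62 times the lowest against 20.6 times among controls. The mean was 98.6 ± 107.1 RPKM for the control libraries and 413.1 ± 102.9 RPKM for the linseed libraries (SD, n = 3). The fold within a sheep was 27.8, 2.15 and 7.04 in sheep 1, 2 and 3. On the log2(RPKM + 1) scale the fitted change was 2.86 ± 0.93 (SE), and it was 1.72 without the library of control sheep 1. Within its library, CD74 exceeded 78.9% of tested transcripts in control sheep 1 and 92.97% to 98.6% in the other libraries.

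**Figure D1:**
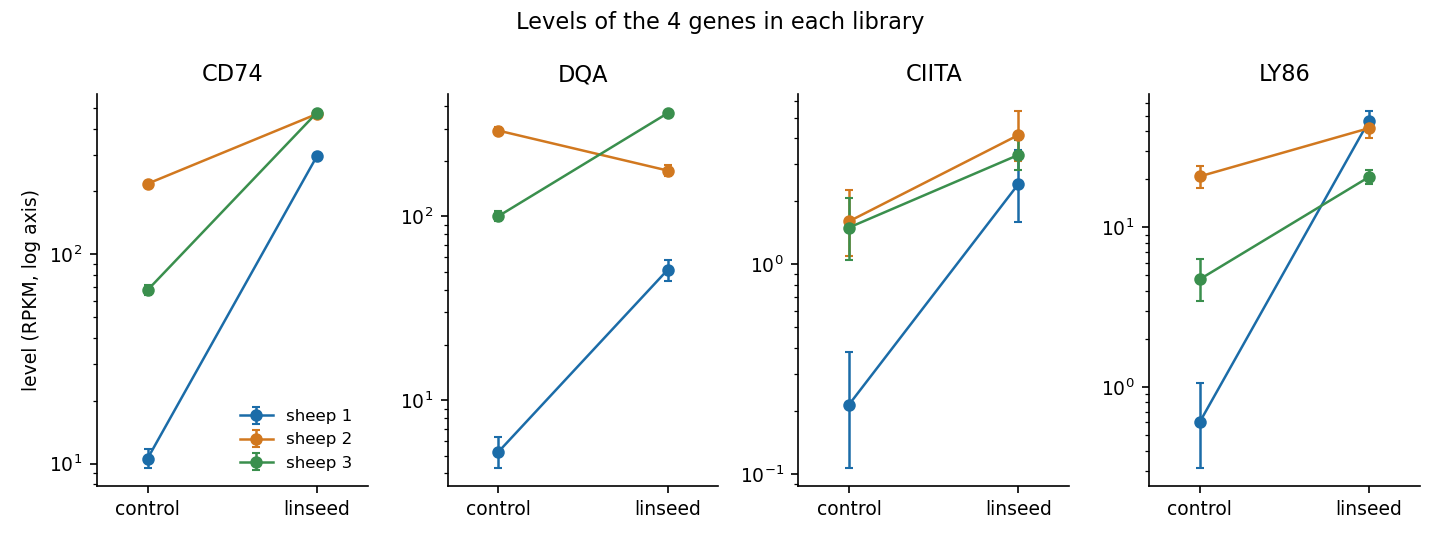
Level of each gene in RPKM (log axis) under the control and the linseed diet, with a line for each sheep and bars for the 95% exact Poisson interval of the read count, which covers counting error only. CD74, CIITA and LY86 go up in every sheep, while DQA goes from 292.6 to 177.5 RPKM in sheep 2.

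DQA encodes the alpha chain of the class II molecule DQ. It had 5.23, 292.6 and 100.2 RPKM in control sheep 1, 2 and 3, from 107, 2327 and 959 reads. With linseed it had 51.1, 177.5 and 363.5 RPKM, from 228, 958 and 6536 reads. The groups overlapped, and the order of the sheep differed between diets, with sheep 2 highest in controls and sheep 3 highest with linseed. The fold within a sheep was 9.76, 0.606 and 3.63 in sheep 1, 2 and 3, and the means were 132.7 ± 146.4 and 197.3 ± 157.1 RPKM (SD, n = 3). The fitted log2 change of DQA was 1.40 ± 1.24 (SE). It turned to -0.20 without control sheep 1. It was 0.57 without both libraries of sheep 1, 2.46 without those of sheep 2 and 1.17 without those of sheep 3. Leaving out control sheep 2 gave 2.58, linseed sheep 1 gave 2.16 and linseed sheep 3 gave 0.76. DQA is polymorphic and has close paralogs, so its level also depends on how the authors' counting treated reads that differ from the reference or match several genes, which was not tested.

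The 2 other class II chains that were matched by symbol and tested, DRA and OVAR-DRB1, went the way of DQA. DRA, the alpha chain of DR, had 10.1, 521.5 and 190.7 RPKM in control sheep 1, 2 and 3 and 22.3, 150.4 and 701.6 RPKM with linseed. The DR beta chain gene (OVAR-DRB1) had 12.003, 468.8 and 293.1 RPKM in controls and 68.9, 220.6 and 645.6 RPKM with linseed. Both were higher with linseed in sheep 1 and 3 and lower in sheep 2, as DQA was. DRA had a log2 change of 0.38 ± 1.42 (SE) and OVAR-DRB1 one of 0.83 ± 1.25, and neither passed limma over all transcripts (adjusted p = 0.911 and 0.762). Without control sheep 1 the changes turned to -1.23 and -0.79, as that of DQA did. DYA, the remaining chain gene matched by symbol, had 3 reads over all 6 libraries and was not tested. Other listed chains, such as DQB, DMA and DOB, matched no symbol and were not examined. Only 31.9% of all transcripts had a symbol. DRA had a second transcript, XM_012100429.2, which shares sequence with the first and had 9.95, 441.1 and 147.5 RPKM in controls and 45.4, 163.4 and 662.4 RPKM with linseed.

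The profile of DQA over the 6 libraries lay nearest to those of the DR chains. After centring each profile on its mean, the root mean square distance from DQA was 0.41 log2 units for OVAR-DRB1, which ranked 1 of 7293 transcripts with a symbol. XM_012100429.2 of DRA ranked 2, at 0.41, and the more abundant DRA transcript ranked 9, at 0.79, against a median of 1.95 over all transcripts compared. CD74 ranked 72 from DQA, at 1.06. By the order of genes in the ARS-UI_Ramb_v3.0 assembly of RefSeq, 2 protein-coding genes lie between DQA and OVAR-DRB1 and 4 between DQA and DRA. This comparison with DQA was added after its values were seen, and it describes 6 libraries that share 3 animals.

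Set against CD74 of the same library, DQA, DRA and OVAR-DRB1 were lower with linseed in every sheep. DQA stood at 49.5%, 134.4% and 148.2% of the CD74 RPKM in control sheep 1, 2 and 3 and at 17.4%, 37.8% and 76.4% with linseed. DRA went from 95.9%, 239.4% and 282.3% to 7.58%, 32.0% and 147.5%, and OVAR-DRB1 from 113.5%, 215.3% and 433.8% to 23.4%, 47.0% and 135.7%. Of all tested transcripts, 74.6% had a level relative to CD74 that was lower with linseed in all 3 sheep, so the direction alone does not set the chains apart. In linseed sheep 1 and 2 all 3 chains were below CD74, whereas in control sheep 2 and 3 all 3 were above it.

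**Figure D2:**
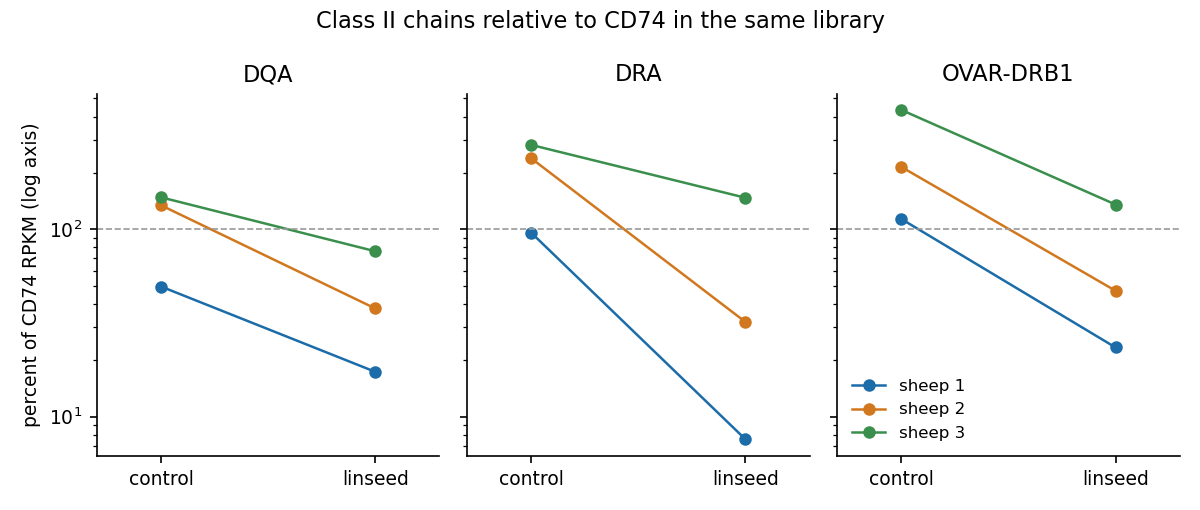
RPKM of DQA, DRA and OVAR-DRB1 as a percent of the CD74 RPKM of the same library (log axis), with a line for each sheep and a dashed line at 100%. Every line slopes down from control to linseed, from 134.4% to 37.8% for DQA in sheep 2.

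CIITA had the lowest level of the 4 genes. Control sheep 1, 2 and 3 had 0.214, 1.60 and 1.497 RPKM, from 11, 32 and 36 reads. With linseed the values were 2.41, 4.13 and 3.32 RPKM, from 27, 56 and 150 reads. All linseed libraries were above all control libraries, but the 95% exact Poisson interval of linseed sheep 1, 1.59 to 3.51 RPKM, overlapped that of control sheep 2, 1.10 to 2.26 RPKM. The means were 1.10 ± 0.77 and 3.29 ± 0.86 RPKM (SD, n = 3), and the fold within a sheep was 11.2, 2.58 and 2.22. The fitted log2 change was 1.09 ± 0.55 (SE) with a pseudocount of 1, which understates the change of so low a transcript. It was 1.80 with a pseudocount of 0.1. Voom on the recovered reads gave 2.25, and 1.75 once the sheep was a block. The corresponding folds of CD74 were 27.8, 2.15 and 7.04, larger than those of CIITA in sheep 1 and 3 and smaller in sheep 2, and this difference was not tested.

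For the genes of the DNA-bound complex with which CIITA works, limma called 0 of 5 tested, as it called 0% of all tested transcripts. None had an unadjusted p under 0.05, beside 15.5% of all tested transcripts. In all 3 sheep 0 of the 5 were higher and 2 lower, beside 23% and 26.2% of all tested transcripts. RFXANK, a subunit of the RFX complex, had 0.584, 3.20 and 4.74 RPKM in control sheep 1, 2 and 3 and 7.49, 5.75 and 4.52 RPKM with linseed, a log2 change of 1.02 ± 0.64 (SE; limma adjusted p = 0.437). RFXAP, another subunit, had a log2 change of -0.69 ± 0.58 and was lower in all 3 sheep. NFYB, a subunit of NF-Y, had a log2 change of -0.65 ± 0.61 and was also lower in all 3, and RFX5, the DNA-binding subunit of RFX, had -0.34 ± 0.56. The median of the list was -0.35, beside -0.12 over all tested transcripts. NFYC and CREB1 were below the minimum for a test.

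LY86 encodes MD-1, a secreted protein that pairs with the Toll-like receptor relative CD180 on B cells, macrophages and dendritic cells. It is no part of the class II molecule. LY86 had 0.604, 20.8 and 4.73 RPKM in control sheep 1, 2 and 3, from 12, 161 and 44 reads. With linseed it had 46.3, 41.7 and 20.6 RPKM, from 201, 219 and 361 reads. Each sheep was higher with linseed, but the groups overlapped narrowly, since control sheep 2 (20.82) stood above linseed sheep 3 (20.65) by less than the counting error. The means were 8.72 ± 10.7 and 36.2 ± 13.7 RPKM (SD, n = 3). The fold within a sheep was 76.7, 2.004 and 4.37, the first resting on the 12 reads of control sheep 1, whose 95% exact Poisson interval ran from 0.312 to 1.054 RPKM. The fitted log2 change was 2.59 ± 0.88 (SE). It was 1.66 without control sheep 1 and 1.44 without both libraries of sheep 1.

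The partner and relatives of LY86 differed between sheep, and their difference from LY86 was not tested. CD180 had a mean below the minimum for a test, with 0.106, 1.23 and 0.368 RPKM in control sheep 1, 2 and 3 and 0.121, 0.301 and 3.62 RPKM with linseed. LY96, which encodes MD-2, the lipopolysaccharide-binding partner of TLR4, had 370.8, 330.0 and 299.1 RPKM in controls and 179.8, 189.1 and 330.2 RPKM with linseed, a log2 change of -0.57 ± 0.58 (SE; limma adjusted p = 0.635). TLR4 had a log2 change of -0.75 ± 1.41 and CD14, its co-receptor, one of 0.18 ± 0.88, and the sign of each turned without some libraries. Limma called 0 of the 3 tested genes in either direction, as it called 0% of all tested transcripts. None had an unadjusted p under 0.05, beside 15.5% of all tested transcripts. In all 3 sheep TLR4 was lower and none was higher, beside 26.2% lower and 23% higher among all tested transcripts. CD14 was higher in sheep 1 alone.

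The 4 genes shared an order among the control sheep. With linseed, CD74 and DQA were both lowest in sheep 1 and highest in sheep 3, and CIITA and LY86 each had another order. In controls, sheep 1 was lowest and sheep 2 highest for all 4, an order seen in 15.3% of tested transcripts. Between the highest and the lowest control library lay 4.24 log2 units for CD74, 5.56 for DQA, 3.77 for LY86 and 1.10 for CIITA, beside a median of 1.35 over tested transcripts. A range as wide as that of DQA was found in 0.579% of tested transcripts, as wide as that of CD74 in 2.67% and as wide as that of LY86 in 4.14%. With linseed the ranges were 0.69, 2.81, 1.13 and 0.59 in the same order, beside a median of 1.197. DQA kept a wide range, reached by 7.51% of tested transcripts. All these ranges are on the log2(RPKM + 1) scale, which narrows those of low transcripts. The medians and shares are therefore no like comparison across levels. The highest control value of CIITA was 7.48 times its lowest. Of the 4 genes, 3 were higher in all 3 sheep, beside 23% of tested transcripts (26.2% were lower in all 3), and 2 had all linseed libraries above all control libraries, beside 13.3% (7.83% had all of them below). These last counts follow from the choice of the genes.

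The profile nearest to that of CD74 was an unnamed gene, LOC101105208, at a root mean square distance of 0.32 log2 units over the 6 libraries, and the next was LOC101109746 at 0.34. Of the 6 nearest of 7293, IL1RN alone had a gene name. IL1RN encodes the interleukin 1 receptor antagonist, ranked 4 at 0.42 and had 2.23, 76.2 and 41.6 RPKM in control sheep 1, 2 and 3 and 119.5, 183.9 and 117.7 RPKM with linseed. LY86 ranked 18, at 0.58, and DQA ranked 180, at 1.06. CIITA ranked 518 at 1.27 and OVAR-DRB1 747 at 1.37, all below the median distance of 2.01. The log2(RPKM + 1) scale of these profiles narrows that of a transcript as low as CIITA, which affects its distance.

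The list of class II transport and processing, with enzymes that prepare antigen and degrade the invariant chain, held 10 tested genes beside CD74. Of these, 6 were above and 0 below their control value in every sheep, beside 23% and 26.2% of all tested transcripts, and the median log2 change was 1.02, beside -0.12. Limma called 0 of the 10 in either direction, 4 had an unadjusted p under 0.05, beside 15.5% of all tested transcripts, and with the sheep as a block it called 1 higher and 0 lower, where that fit called 1.28% of all tested transcripts higher and 1.34% lower. The called gene was CTSZ, a lysosomal carboxypeptidase. CTSZ had 136.7, 737.5 and 614.9 RPKM in control sheep 1, 2 and 3 and 3108, 3258 and 3583 RPKM with linseed, so the groups did not overlap. Its log2 change was 3.06 ± 0.72 (SE), with a limma adjusted p of 0.263 in the unblocked fit and 0.0441 in the blocked fit. With the block it was 0.0536 once milk proteins were excluded from the library total, and 0.0599 with voom on the recovered reads. The call did not hold in those fits, which were added after the data were seen. Over the settings without the block the adjusted p of CTSZ ran from 0.0859 to 0.924.

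CTSH, a lysosomal aminopeptidase, had a mean of 61.2 ± 46.9 RPKM in the control libraries and of 241.4 ± 66.8 RPKM in the linseed libraries (SD, n = 3), and its log2 change was 2.21 ± 0.69 (SE). IFI30, the lysosomal thiol reductase that unfolds antigens and is induced by interferon gamma, had 70.6, 399.1 and 150.8 RPKM in controls and 572.1, 927.7 and 890.3 RPKM with linseed, a log2 change of 2.26 ± 0.71. CST3, which encodes the cathepsin inhibitor cystatin C, had a log2 change of 1.97 ± 0.87. Limma gave these 3 genes adjusted p-values of 0.263, 0.263 and 0.313, and 0.0594, 0.0608 and 0.0861 with the block. CTSS, the protease that removes most of the invariant chain in antigen presenting cells, is named here after its values were seen. It had 52.5, 487.6 and 309.4 RPKM in controls and 15.2, 90.2 and 736.2 RPKM with linseed, below its control value in sheep 1 and 2 and above it in sheep 3 (log2 change -0.96 ± 1.24 SE; limma adjusted p = 0.715).

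**Figure D3:**
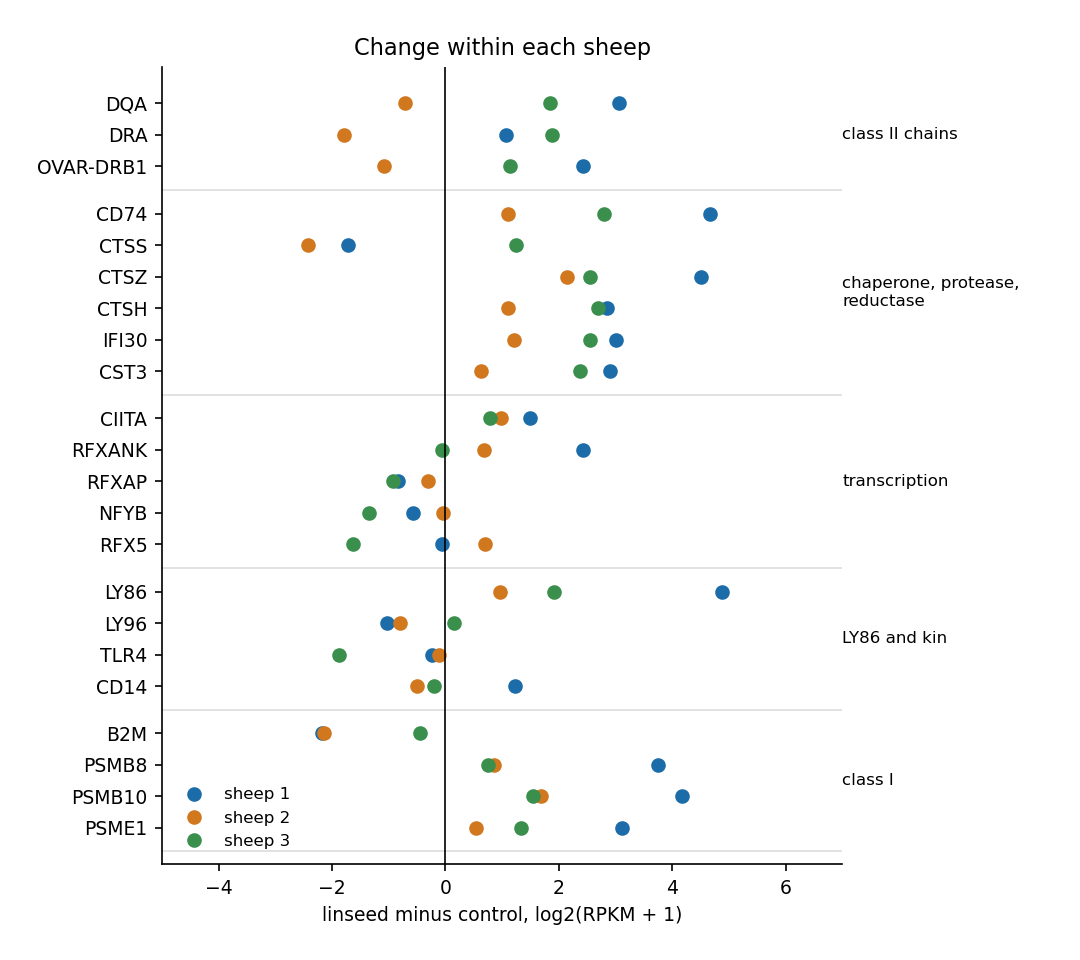
Difference between linseed and control within each sheep on the log2(RPKM + 1) scale, with a point for each sheep, for the class II chains, genes of processing and transcription, LY86 with related genes, and genes of class I presentation. The 3 chain genes have sheep 2 to the left of 0 and the other sheep to the right, while CD74, CTSZ, CTSH, IFI30, CST3, CIITA and LY86 have all sheep to the right.

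The counts of interferon gamma signalling and co-stimulation genes stand beside the same shares over all tested transcripts, 23% higher and 26.2% lower in every sheep. Of 9 tested genes of interferon gamma signalling, 1 was above and 3 below control in each sheep, and limma called 0, with none at an unadjusted p under 0.05. IFNG itself, the cytokine that induces CIITA, had 0.112, 6.62 and 8.73 RPKM in control sheep 1, 2 and 3 and 0.769, 0 and 1.21 RPKM with linseed, a log2 change of -1.47 ± 0.79 (SE; limma adjusted p = 0.379). JAK1 and JAK2, kinases of its receptor, had a log2 change of -1.65 ± 0.84 and -1.47 ± 0.68 and were lower in all 3 sheep. The median of this list was -1.02, beside -0.12 over all tested transcripts. Of 7 tested co-stimulation genes, 2 were above and 1 below control in each sheep, and limma called 0, again with none at an unadjusted p under 0.05. The adhesion gene ICAM1 had a log2 change of 1.08 ± 0.77, the ligand gene ICOSLG had 1.27 ± 0.94, CD40 had 0.90 ± 0.82 and CD274, which encodes the inhibitory ligand PD-L1, had -1.24 ± 0.63. Over all 6 lists, limma called 0 of 36 tested genes other than the 4 described, where it called 0% of all tested transcripts higher and 0% lower, and voom on the recovered reads also called 0. Of these 36 genes, 4 had an unadjusted p under 0.05, beside 15.5% of all tested transcripts.

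Summed markers of macrophages, B cells and neutrophils were higher with linseed in all 3 sheep, those of dendritic cells and of T and NK cells in 1 of 3, and the part of any cell type in the values above was not tested. The summed level of 15 measured macrophage markers, of 20 listed, was 206.6, 2271 and 1552 RPKM in control sheep 1, 2 and 3 and 2567, 3108 and 5457 RPKM with linseed, so the groups did not overlap. TYROBP, CD68 and LYZ were its most abundant genes, and TYROBP is also expressed by neutrophils and NK cells. The members went both ways: of the 14 tested, 6 were higher and 3 lower with linseed in every sheep, beside 23% and 26.2% of all tested transcripts. The 6 were TREM2, C1QA, TYROBP, AIF1, FCGR1A and CD68, with log2 changes of 3.73, 2.98, 2.69, 2.21, 1.91 and 1.55. The 3 were MRC1, ITGAM and ITGAX, with log2 changes of -1.61, -0.67 and -0.61. In the unblocked fit limma called 0 of the 14. In the blocked fit only TREM2 passed as higher and 0 passed as lower, beside 1.28% and 1.34% of all tested transcripts. The limma adjusted p of TREM2 was 0.0401 in the blocked fit and 0.263 in the unblocked fit. The differences of LYZ within sheep 1, 2 and 3 were -2.48, -3.76 and 1.29 on the log2 scale. The median change of the list was 1.77, -0.36 and 1.28 in sheep 1, 2 and 3. As a percent of this sum, CD74 stood at 5.12%, 9.59% and 4.35% in controls and 11.5%, 15.1% and 8.72% with linseed, higher in each sheep. LY86 was also higher in each sheep on this measure, while DQA and CIITA were higher in 1 of 3 sheep. This ratio was computed after the values were seen, for genes selected on their difference between diets. It depends on which markers lead the sum, and no share over all tested transcripts stands beside it. The log2 change of CD74, 2.86, was smaller than those of TREM2 and C1QA and larger than those of the other tested markers.

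The 8 measured B cell markers of 12 summed to 0.764 to 9.21 RPKM in controls and 5.87 to 18.1 RPKM with linseed, led by CD79A and CD79B. Of these, PAX5 was at 0 in at least 1 library of each diet and MS4A1 did not exceed 2.58 RPKM. The 4 measured dendritic cell markers of 12, led by CCR7, summed to 5.69 to 41.6 and 8.45 to 30.3 RPKM, and were higher with linseed in 1 of 3 sheep. The 6 neutrophil markers of 12, led by S100A9 and S100A8, summed to 427.3 to 908.5 RPKM in controls and 2393 to 3197 RPKM with linseed, with no overlap. The 10 T and NK cell markers of 17, led by CD3E, summed to 11.7 to 812.3 and 76.9 to 183.9 RPKM, and the 5 epithelial markers of 12, led by LTF and KRT8, to 430.9 to 1687 and 85.2 to 810.2 RPKM. Control sheep 1, the lowest library for all 4 genes described, had the lowest sum in each of the 5 leukocyte lists and the highest in the epithelial list. That last rank rested on LTF, at 1146 RPKM. Without it, a sum added after the values were seen, the sum of control sheep 1 was 540.1 RPKM, below the 623.3 RPKM of linseed sheep 2, and KRT8 was lowest of all 6 libraries in control sheep 1, at 17.6 RPKM. No marker of these lists was at 0 in all 6 libraries. Of the 5 epithelial markers, limma with the sheep as a block called CD24 lower and 0 higher, beside 1.34% and 1.28% of all tested transcripts. The adjusted p of CD24 was 0.0461, against 0.263 without the block.

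**Figure D4:**
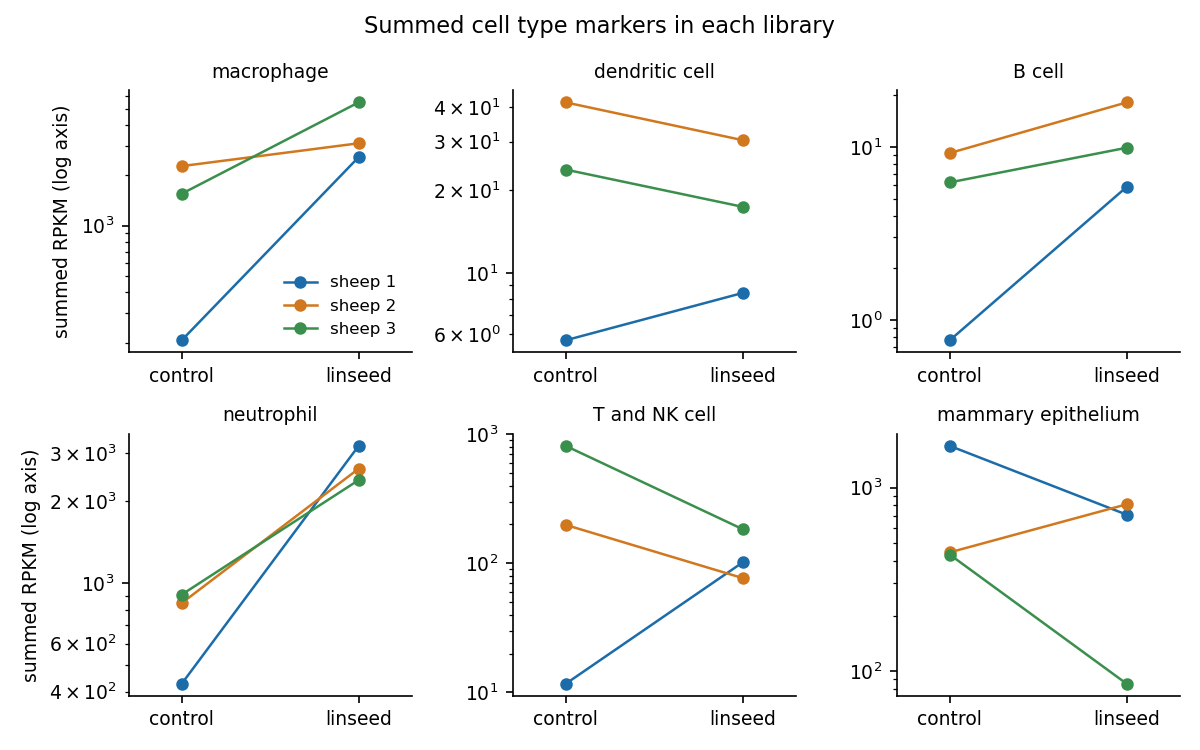
Summed RPKM of the measured markers of 6 cell types (log axis) under each diet, with a line for each sheep. Control sheep 1 is lowest in the 5 leukocyte panels, at 206.6 RPKM for macrophages, and highest in the epithelial panel, at 1687 RPKM, of which LTF made up 1146 RPKM.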

How the data were processed

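The authors deposited 1 table of RPKM values (decimal commas) with a row per RefSeq transcript and a column per library. Trimmomatic 0.33 served for trimming, per the submitters' processing notes. For aligner, counter, strand and build the entry is: not given in the sources used here. Groups came from the letter in each title, read with the series design. Accessions were paired with symbols by RefSeq's annotation of ARS-UI_Ramb_v3.0, matched without version (31.9% of 49705 transcripts) and used for names and neighbours alone; DRA was matched by a synonym. Reads were recovered from whole-number steps (tolerance 0.002 reads), and 95% exact Poisson intervals cover counting error only.

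The 15891 transcripts whose mean reached 1 RPKM were compared as log2(RPKM + 1) with limma 3.58.1 in R 4.3.3 (mean-variance trend, Benjamini-Hochberg adjusted p under 0.05). The code was checked on simulated data whose spread was capped below that of genes such as DQA. That check does not measure the power of the test in these data. The same animals gave both diets by the series design, and libraries with the same number in their titles were taken as the same ewe. The labels shown name no animal. The correlation, across transcripts, between the libraries so matched in their deviations from the diet means was 0.18, 0.25 and 0.40. No value for libraries of different numbers stands beside these. The fit without a block is the one reported, and each SE printed above is from it. The blocked adjusted p stands beside it where the call of a listed gene changes. With the block the SE was 0.70 for CD74, 0.70 for DQA, 0.47 for CIITA and 0.68 for LY86.

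The 4 genes and the gene lists were chosen with earlier results of these data known. Named genes were, in each list, up to 4 tested genes of smallest p, the 3 most abundant markers of a cell type, and the 6 profiles nearest to CD74. Some genes taken by this rule are not reported here.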

Additional observations from a re-analysis of the deposited data

How the results depend on the processing

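Limma called 0 of 15891 transcripts, with 2464 at an unadjusted p under 0.05, and 0 of 36 pathway genes. With the sheep as a replicate block it called 416 transcripts (203 higher, 213 lower) and 1 pathway gene, and with the block and milk proteins left out of the total 152 transcripts, a setting chosen after seeing the data. Under the other settings run for these counts both were 0, also in each fit that left out 1 library or 1 sheep. These settings include voom on the recovered reads, which was likewise added after seeing the data.

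CD74 ran from 1.72 to 3.84, LY86 from 1.44 to 3.54 and CIITA from 0.73 to 2.25 on the log2 scale over the settings run, with no change of sign. DQA ran from -0.20 (without control sheep 1) to 2.58. Leaving milk proteins out of the total moved the median change of all tested transcripts from -0.12 to -0.28, and quantile normalization moved it to -0.01; CD74 then had 2.64 and 2.41, DQA 1.19 and 1.07, CIITA 1.10 and 1.27 and LY86 2.53 and 2.52. Of the 26 named genes of the lists, 21 kept their sign in all settings in which they were tested. The others turned in fits that left out 1 library or 1 sheep, over which DRA ran from -1.23 to 1.65, OVAR-DRB1 from -0.79 to 1.80, CTSS from -2.38 to 0.37, TLR4 from -1.94 to 1.02 and CD14 from -0.65 to 1.00; CD14 also turned after quantile normalization (-0.059) and once the total excluded milk proteins (-0.045, with or without the block). At a mean of at least 5 RPKM, CIITA was not tested. The count tests listed for a table of raw counts were not run, since the table holds RPKM. With 11 and 12 reads, CIITA and LY86 in control sheep 1 limit the precision of their folds.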

Other observations

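Genes of class I presentation, by which cells show peptides of their own proteins to CD8+ T cells, differed among themselves. Subunits of the immunoproteasome (PSMB8, PSMB10) and of its activator (PSME1) were higher with linseed in all 3 sheep: PSMB10 had 6.82, 39.2 and 32.9 RPKM in control sheep 1, 2 and 3 and 139.7, 128.9 and 97.4 RPKM with linseed, a log2 change of 2.47 ± 0.72 (SE). PSMB8 had a log2 change of 1.78 ± 0.83 and PSME1 one of 1.66 ± 0.73. B2M, the light chain that every class I molecule needs at the surface, was lower in all 3 sheep, from 1581, 4064 and 5136 RPKM to 349.9, 919.9 and 3740 RPKM, a log2 change of -1.59 ± 0.86. Of the 13 tested genes, 7 went up and 2 went down in every sheep, beside 23% and 26.2% of all tested transcripts. Limma called 0 of the 13 without the sheep as a block, as it called 0% of all tested transcripts. With the block it also called 0, beside 1.28% of all tested transcripts higher and 1.34% lower. Without the block 2 had an unadjusted p under 0.05, beside 15.5% of all tested transcripts. The adjusted p without the block was 0.263 for PSMB10, 0.331 for PSMB8, 0.313 for PSME1 and 0.383 for B2M.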
